A study of Mus musculus with 32 samples.

Results

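The ion channels and junction proteins that carry the electrical activity of the heart were followed through hypertrophy and failure of the mouse ventricle. Members were all genes whose single annotated symbol begins with Kcn, Scn and a digit, Cacn, Gja, Gjb, Gjc, Hcn or Atp1, which takes in potassium, sodium, calcium and pacemaker channels, connexins and the sodium pump. The rule found 108 genes with 158 probe sets, of 13675 singly annotated genes on the 2 array types used. Where a gene had several probe sets, the one with the highest mean log2 signal stood for it, which lay on the first array type for 72 genes and on the second for 36. The pattern Atp1 also takes in 8 P-type ATPases that are not the sodium pump (Atp10a, Atp10d, Atp11a, Atp11b and Atp13a1 to Atp13a4), and 100 members remain without them.

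Total RNA of the cardiac ventricle was hybridised to 2 types of Affymetrix array. Each type held 3 arrays of transgenic mice in cardiac failure, 8 of transgenic mice in cardiac hypertrophy and 5 of wild type mice. The transgene is described as a cardiac specific AT1, which in heart research commonly stands for the angiotensin II type 1 receptor, and both diseased groups carry it, so hypertrophy and failure were each compared with mice that lack it. Promoter, founder line, strain, age and sex are not given in the labels. Nor do they state whether replicates were different animals, and each p-value therefore weighs a difference against sample spread that could in part be technical.

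As background, each heartbeat begins when sodium channels open and depolarise the myocyte, L-type calcium channels then sustain the plateau and trigger contraction, and several potassium currents restore the resting potential. Connexins, above all connexin 43 from Gja1 in the ventricle, form the gap junctions that pass the impulse from cell to cell, and the sodium pump maintains the ion gradients. Hypertrophied and failing hearts are known for electrical remodelling, in which potassium currents shrink, action potentials lengthen and connexin 43 is reduced or displaced.

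The promoters of 2 members are shown because these genes, the connexin Gja1 and the sodium channel beta subunit Scn4b, had the most lowered mean signals in failure against wild type and did not overlap between those groups. Sequences are RefSeq windows of build GRCm38.p6, each on the plus strand, from 250 bases before to 50 bases after the annotated start. The Gja1 window is chr10:56377050-56377349 and the Scn4b window is chr9:45138374-45138673. Capitals mark matches to 4 motifs, each searched on both strands. The first, TGANTCA, is the site of AP-1 factors. The second, AGATAA, is a site of factors of the Gata family. The third is the core promoter box TATAAA. The fourth, GGGCGG, is a box bound by Sp1 factors. No match overlapped another.
Gja1: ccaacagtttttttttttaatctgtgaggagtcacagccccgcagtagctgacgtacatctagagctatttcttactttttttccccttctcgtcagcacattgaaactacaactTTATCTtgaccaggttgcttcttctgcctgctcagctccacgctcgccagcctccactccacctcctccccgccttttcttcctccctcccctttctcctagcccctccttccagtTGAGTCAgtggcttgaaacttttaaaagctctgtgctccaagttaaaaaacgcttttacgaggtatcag
Scn4b: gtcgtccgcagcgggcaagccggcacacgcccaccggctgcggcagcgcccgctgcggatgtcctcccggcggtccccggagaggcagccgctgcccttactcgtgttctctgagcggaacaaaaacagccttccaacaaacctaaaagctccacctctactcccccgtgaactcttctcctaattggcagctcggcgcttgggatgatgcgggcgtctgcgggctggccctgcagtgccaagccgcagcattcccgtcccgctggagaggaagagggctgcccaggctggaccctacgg
Gja1 held a match to the first motif whose first base lies 19 bases before the start and, further upstream, a match to the second, read on the reverse strand. Among 32851 promoter windows of the same length, 7.81% held the first motif, 11.2% the second, 13.6% the third and 35.7% the fourth. Scn4b held none of the 4 motifs in this window. A match is a run of letters and was not examined as a binding site.

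The deposited signal of a probe set depends on its probes as well as on its transcript, so differences are given here only between arrays, and the median of an array served to sort genes and not to rank their transcripts. The mean signal of 68 members lay above the median of their arrays, and that of 40 did not. At the border, the mean log2 signal of Atp11b, Kcnj12 and Kcna6 corresponded to 0.960, 0.979 and 0.994 of the array median, and that of Kcnq1, Atp10d and Gjb6 to 1.03, 1.04 and 1.07. Tests were limited to probe sets at or above their own array's median in at least 3 of 16 arrays, which 75 members were, the 68 above the median and 7 others. Mean signals above the median were found for 7 of 10 connexins, 7 of 10 calcium channel partner subunits, 5 of 8 calcium pores, 12 of 22 voltage-gated potassium pores, 7 of 13 inward rectifiers and 2 of 8 2-pore potassium channels.

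Of the 33 untested members, 2 were in every array below the floor to which values were raised before taking log2, namely Kcnd2 and Scn10a. Kcnd2 encodes a pore of the fast transient outward current, and its probe set gave 16.9 to 22.7 in failure, 10.6 to 24.7 in hypertrophy and 22.3 to 33.9 in wild type, under a floor of 39.5. Kcnj2, a pore of the current that holds the resting potential, gave 25.8 to 34.3 in failure, 15.6 to 46.4 in hypertrophy and 4.47 to 40.0 in wild type. Both lay so near the background that no difference could be read. The other untested members of the cardiac core list were Kcna4, Kcna5, Kcnj3 and Kcnj8, with signals between 2.76 and 96.3.

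Among the arrays, hypertrophy replicates 6 and 7 had low ratios of the 5' to the 3' Gapdh control on both types. They were 0.468 and 0.0487 on the first type, against 0.806 to 0.955 in wild type. On the second they were 0.379 and 0.0414, against 0.772 to 0.913. The Actb ratio on the first type was 1.1, 0.765 and 1.02 in failure and 0.545 to 0.752 in wild type, without overlap. On the second type it was 1.22, 0.852 and 1.21 in failure and 0.654 to 1.0 in wild type, with overlap. The part of these ratios in the differences of members was not tested. Hypertrophy replicate 1 had the lowest median signal on both types, 91.8 and 69.3, and was the lowest of its group for 12 of 45 and 8 of 30 tested members. All 8 ventricular myocyte markers were above the array median in level, with summed signals of 43110 to 44120 in failure, 38090 to 48480 in hypertrophy and 40630 to 46230 in wild type. Of the atrial and conduction markers, 4 of 8 were above it, and their sum was 4487 to 6405 in failure, 1408 to 5039 in hypertrophy and 1803 to 3857 in wild type. Without Nppa, a natriuretic peptide that diseased ventricle also makes, the sum of the other 7 was 797.8 to 1985 in failure, 714 to 1454 in hypertrophy and 789 to 1319 in wild type, so that failure and wild type overlapped. Failure replicate 3 was the lowest of its group for 27 of 45 tested members of the first type. It also differed from the other failure arrays in markers of other cells. Its signal was 10048 for the globin Hba-a1, against 3768 and 5014 in those arrays. For the atrial light chain Myl4 it was 730.2, against 69.8 and 64.1, and for the collagen Col3a1 90.0, against 1088 and 1248. Wild type arrays read 4356 to 6339, 139 to 507 and 119 to 311 for these genes, and hypertrophy arrays 1846 to 7586, 39.2 to 670 and 101 to 552. For Col3a1, replicate 3 was thus nearer wild type than the other failure arrays were. The same held for Col1a1, at 140 in replicate 3, 606 and 771 in the others and 138 to 209 in wild type. Of the fibroblast markers, 6 of 8 were above the median, with sums of 3374 to 7026 in failure, 2233 to 5254 in hypertrophy and 3382 to 4113 in wild type.

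No member passed in any of the 3 comparisons at an adjusted p of 0.05 in the limma fit. In failure against wild type 0 of 75 tested members passed, where 0.25% of all 13984 tested probe sets did, and 4 members (5.33%) had an unadjusted p under 0.05, against 11.4% of probe sets. In hypertrophy against wild type 0 passed, against 0.0858%, and 2 members (2.67%) had an unadjusted p under 0.05, against 7.12%. In failure against hypertrophy 0 passed, against 0.0143%, and 8 members (10.7%) had an unadjusted p under 0.05, against 9.36%. The comparisons share arrays and are not independent of each other. In these bulk samples, fewer cells of a type and less RNA per cell cannot be told apart.

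Counting members whose groups did not overlap gave 6 in failure against wild type (8.0%, against 13.5% of all probe sets; 2 higher, against 9.17%, and 4 lower, against 4.35%), 0 in hypertrophy against wild type (against 0.436%) and 5 in failure against hypertrophy (6.67%, against 2.16%; 4 higher, against 1.47%, and 1 lower, against 0.686%). The median log2 difference of the tested members was 0.02 in failure against wild type, 0.03 in hypertrophy against wild type and, between the transgenic groups, 0.03, where all probe sets gave 0.05, 0.01 and 0.04. The members' median absolute difference was 0.12, 0.07 and 0.12 on the log2 scale, against 0.15, 0.10 and 0.13 over all probe sets. Differences of members ranged from -0.75 to 0.72 in failure against wild type, from -0.58 to 0.60 in hypertrophy against wild type and from -1.06 to 0.63 in failure against hypertrophy. The number of arrays limited the precision: the median 95% interval of a member extended 0.31 to either side in failure against wild type, 0.24 in hypertrophy against wild type and, between the transgenic groups, 0.28. These intervals are not adjusted for the number of probe sets tested. For a typical member, a difference therefore had to be larger than that to pass at the adjusted threshold.

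**Figure D1:**
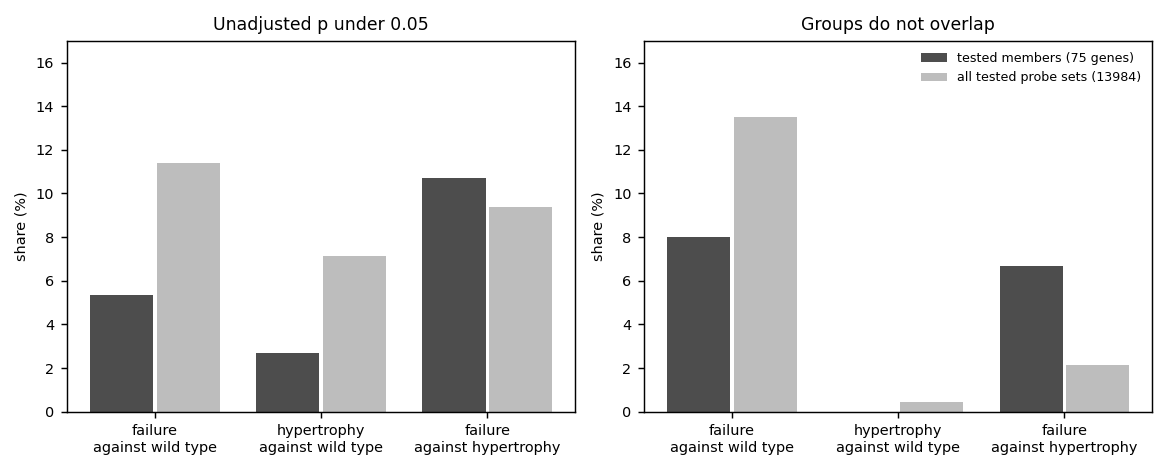
Share, in percent, of the 75 tested members (dark bars) and of all 13984 tested probe sets (light bars) that had an unadjusted p under 0.05 (left) or groups without overlap (right), in each comparison. The members' bar is lower than that of all probe sets in the 2 comparisons with wild type and higher in failure against hypertrophy.

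Of 7 tested connexins, Gja1 had the lowest log2 difference in failure against wild type. It encodes connexin 43, the main gap junction protein of working ventricular muscle. Its signal was 1553, 1372 and 1810 in failure, between 577 and 2729 with a median of 2097 in hypertrophy, and 2454, 2008, 2757, 2251 and 2312 in wild type. All 3 failure arrays lay below all 5 wild type arrays, while the hypertrophy arrays overlapped both, with replicate 1 at 577 and the other 7 at 1844 or above. The log2 difference was -0.58 ± 0.35 (SE) in failure against wild type, with a 95% interval from -1.32 to 0.16 and an adjusted p of 0.603 in the limma fit. In hypertrophy against wild type it was -0.33 ± 0.27, and -0.09 without hypertrophy replicate 1. Leaving out that array keeps the failure difference as it is and changes only the spread that the groups share: the adjusted p of failure against wild type was then 0.0687, with 0.779% of all probe sets passing. Without hypertrophy replicates 1, 6 and 7, an alternative chosen after seeing the data, it was 0.0471, with 2.17% of probe sets passing. With array weights, which give an array less say the more it deviates from the fit, it was 0.00926 for a log2 difference of -0.72, with 10.2% passing.

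Of the other 6 tested connexins none passed in any comparison. Gja4, connexin 37 of arterial endothelium, gave 171, 240 and 186 in failure, 100.4 to 198 in hypertrophy and 166, 160, 119, 129 and 185 in wild type, with 2 failure arrays above the wild type range and 1 inside it. Its log2 difference in failure against wild type was 0.40 ± 0.21 (adjusted p = 0.534), and it was 0.25 without failure replicate 2. With array weights its adjusted p was 0.0430, where 10.2% of all probe sets passed. Beside it, the summed signal of the endothelial markers was 1066 to 1397 in failure, 652 to 1279 in hypertrophy and 974.9 to 1168 in wild type, 6 of 8 markers being above the array median. None of the 6 tested endothelial markers was called, and 2 had higher signal at an unadjusted p under 0.05 in failure against wild type. These were Vwf, at 205, 185 and 329 in failure and 89.7 to 166 in wild type, and Tie1, at 149, 128 and 155 in failure and 94.4 to 117 in wild type, both without overlap. The other tested endothelial markers did not share a direction. Their means in failure and wild type were 225 and 187 for Flt1, 257.5 and 244.7 for Cdh5, 121.0 and 120.9 for Emcn and, lower in failure, 110 and 131 for Kdr. The part of these cells in the Gja4 signal was not tested. Gja5, connexin 40 of atrium and conduction fibres, had means of 199 ± 20.6 in failure, 218 ± 30.7 in hypertrophy and 207 ± 16.5 in wild type (SD, n = 3, 8 and 5). Gjc1, connexin 45, an early cardiac and nodal connexin, had means of 291 ± 12.9, 272 ± 50.5 and 270.1 ± 36.7 in failure, hypertrophy and wild type. The 3 connexins Gja3, Gjb5 and Gjb6, best known from other tissues, differed by 0.07 ± 0.19, 0.01 ± 0.12 and 0.26 ± 0.16 in failure against wild type. The groups of both conduction system connexins overlapped.

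The sodium channel members comprised 6 pores and 1 beta subunit, and the beta subunit had, over all arrays, the lowest log2 difference of the tested members in failure against wild type. Scn4b encodes the beta 4 subunit, which associates with sodium channel pores and modifies their gating. Its signal was 104 (replicate 1), 189 and 175 in failure, between 105 and 410.5 with a median of 316 in hypertrophy, and 337, 190.3, 248, 242 and 277 in wild type. Failure and wild type did not overlap, by a narrow margin between the highest failure and the lowest wild type array, and hypertrophy overlapped failure only through its replicate 1. The mean was 156 ± 45.2 in failure, 300.2 ± 94.2 in hypertrophy and 259 ± 53.7 in wild type (SD, n = 3, 8 and 5). The log2 difference was -0.75 ± 0.34 in failure against wild type (adjusted p = 0.385), and failure against hypertrophy gave -0.90 ± 0.31 (adjusted p = 0.454). Leaving out 1 array at a time, the first value ranged from -0.91 to -0.49, with -0.49 reached without failure replicate 1, and the second from -1.10 to -0.63. Without hypertrophy replicate 1, Scn4b passed in failure against hypertrophy, at -1.10 with an adjusted p of 0.0373, where 0.0858% of all probe sets passed, and its adjusted p against wild type was 0.0932. In hypertrophy against wild type the difference was 0.14 ± 0.27, and 0.35 without that array.

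Among the 4 tested sodium pores, none passed. Scn3a, a pore best known from developing brain, gave 69.1, 78.3 and 71.3 in failure, 62.3 to 110.5 in hypertrophy and 97.0, 76.4, 92.1, 96.8 and 89.2 in wild type. Its log2 difference in failure against wild type was -0.31 ± 0.15 (adjusted p = 0.419), with 1 wild type array inside the failure range. Scn7a, the sodium-sensing member of the family, Scn8a and Scn9a had differences of -0.03 ± 0.27, 0.02 ± 0.10 and 0.10 ± 0.18 in failure against wild type. A second tested probe set of Scn7a gave 0.58 ± 0.28 in that comparison (adjusted p = 0.4185), higher without overlap. In hypertrophy against wild type it gave 0.48 ± 0.22 (adjusted p = 0.4925).

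**Figure D2:**
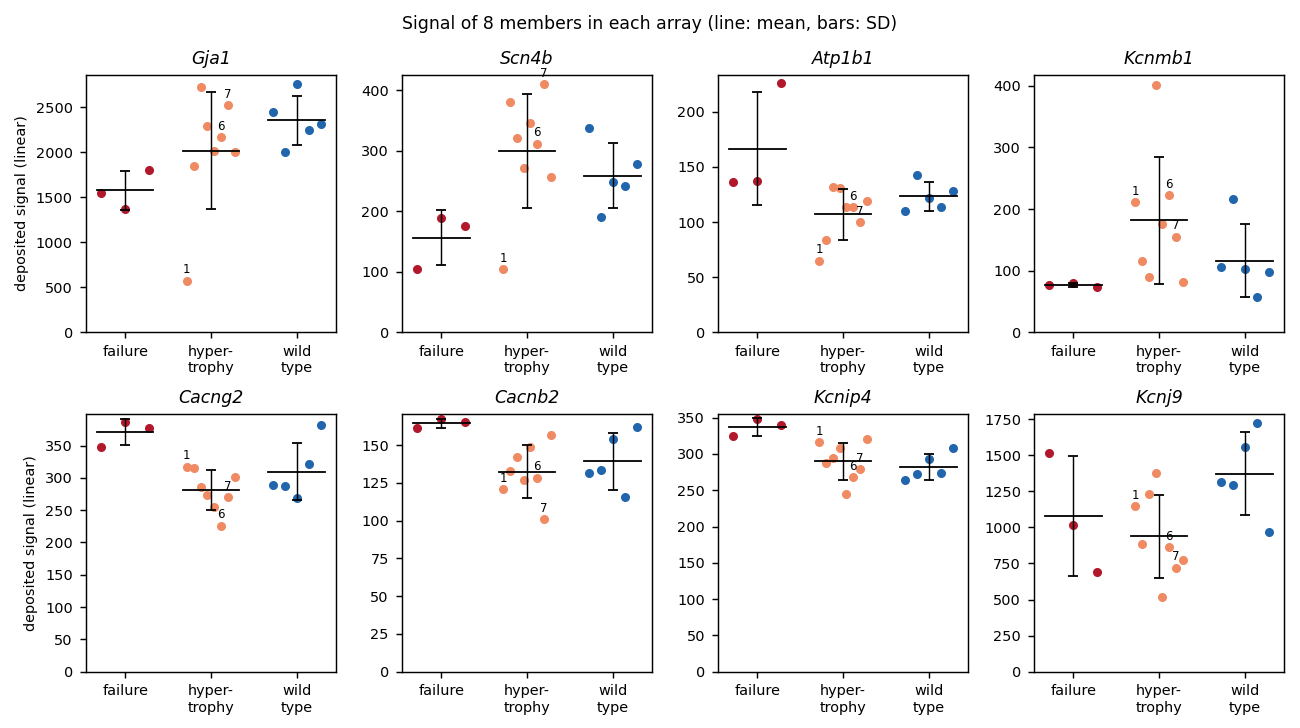
Deposited signal (linear) of 8 members in each of the 3 failure, 8 hypertrophy and 5 wild type arrays of the array type that carries the gene's probe set, with the mean as a line and the SD as bars. Hypertrophy replicates 1, 6 and 7 are numbered; replicate 1 is the lowest hypertrophy array for Gja1 and Scn4b, and the failure arrays lie above all hypertrophy arrays for Atp1b1, Cacng2, Cacnb2 and Kcnip4 and below them for Kcnmb1.

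Voltage-gated potassium pores were the largest family, with 14 of 22 members tested, and their median log2 difference was -0.03 in failure against wild type, 0.04 in hypertrophy against wild type and, between the transgenic groups, -0.06. Kcnd3, a pore of the transient outward current that shapes early repolarisation, gave 311, 307 and 262 in failure, 245 to 433 in hypertrophy and 291, 395, 412, 398 and 309 in wild type. Kcnh2, the pore of the rapid delayed rectifier current, gave 342, 316 and 290.2 in failure, 325 to 442 in hypertrophy and 371, 364, 376, 332 and 380.3 in wild type. For both genes the failure mean was the lowest of the 3 groups, and failure overlapped wild type in each. The log2 difference of Kcnd3 was -0.29 ± 0.17 in failure against wild type (adjusted p = 0.598) and -0.03 ± 0.13 in hypertrophy against wild type. That of Kcnh2 was -0.21 ± 0.11 in failure against wild type (adjusted p = 0.546), -0.24 ± 0.10 in failure against hypertrophy (adjusted p = 0.439) and 0.03 ± 0.09 in hypertrophy against wild type.

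Kcnq1, the pore of the slow delayed rectifier, differed by 0.14 ± 0.17 in failure and 0.25 ± 0.13 in hypertrophy against wild type. Its partner Kcne1, which slows that current, gave 153, 165 and 112 in failure, 93.9 to 244 in hypertrophy and 124, 93.0, 122, 104 and 99.2 in wild type, with 1 failure array inside the wild type range. The difference was 0.39 ± 0.22 in failure (adjusted p = 0.564, and 0.0270 with array weights, where 10.2% of all probe sets passed) and 0.35 ± 0.17 in hypertrophy (adjusted p = 0.96). Hypertrophy replicate 6 supplied the highest value, and without 1 array at a time the hypertrophy difference ranged from 0.23 to 0.43. The largest positive difference of any member in failure against wild type belonged to Kcng2, a subunit that forms no channel alone and modifies other pores. Kcng2 gave 190, 288 and 320.2 in failure, 125 to 323 in hypertrophy and 176, 94.1, 152, 138 and 277 in wild type, so that all 3 groups overlapped (0.72 ± 0.33, adjusted p = 0.392). Kcnf1, another such modifying subunit, differed by 0.59 ± 0.37, and by 0.37 without wild type replicate 4, which at 54.4 was the lowest of its group, the others reading 112 to 125. Kcng1 lay lower in failure without overlap, at 303, 319 and 297, against 323 to 339 in wild type, a log2 difference of only -0.13 ± 0.12.

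Of the 7 tested partner subunits of potassium channels, Kcnip4 and Kcnmb1 did not overlap between failure and hypertrophy. Kcnip4 encodes a calcium-binding protein that attaches to transient outward channels. It gave 324, 349 and 339.8 in failure, 245 to 320.2 in hypertrophy and 264, 272, 293, 274 and 308 in wild type, and all 3 failure arrays lay above every other array. The log2 difference was 0.26 ± 0.10 against wild type (adjusted p = 0.298) and 0.22 ± 0.10 against hypertrophy (adjusted p = 0.525). Kcnmb1 encodes the beta 1 subunit of the large calcium-activated potassium channel of smooth muscle. It gave 77.3, 80.0 and 74.0 in failure, 82.3 to 401 with a median of 165 in hypertrophy and 106, 216, 102, 57.2 and 98.5 in wild type. The failure arrays lay below every hypertrophy array and within the wild type range. The difference was -1.06 ± 0.40 in failure against hypertrophy (adjusted p = 0.476) and 0.60 ± 0.34 in hypertrophy against wild type (adjusted p = 0.592). Without 1 array at a time the hypertrophy value ranged from 0.38 to 0.86. The summed signal of smooth muscle and pericyte markers, 7 of 8 above the array median, was 2865 to 3081 in failure, 1821 to 2900 in hypertrophy and 2389 to 2663 in wild type. Without Des, which cardiomyocytes also make, it was 1972 to 2099 in failure, 1502 to 2084 in hypertrophy and 1628 to 1941 in wild type. The sums of failure and hypertrophy overlapped with and without Des, and the part of these cells in the Kcnmb1 signal was not tested. Kcnip3, a related calcium-binding protein that also acts as a transcriptional repressor, differed by -0.28 ± 0.12 in failure against hypertrophy (adjusted p = 0.528) and by 0.21 ± 0.10 in hypertrophy against wild type (adjusted p = 0.513).

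Among the 8 tested inward rectifiers, the differences of lowest p in hypertrophy belonged to Kcnj9 and Kcnj6, G protein-gated subunits best known from neurons. Kcnj9 gave 1518, 1020 and 694 in failure, 516 to 1376 with a median of 874 in hypertrophy and 1317, 1292, 1559, 1727 and 966 in wild type. The groups overlapped widely, and 5 of 8 hypertrophy arrays lay below the lowest wild type array. The log2 difference in hypertrophy against wild type was -0.58 ± 0.23 for Kcnj9 and -0.29 ± 0.14 for Kcnj6 (adjusted p = 0.96 for each). The next probe set of Kcnj9 gave 0.04 in the same comparison and that of Kcnj6 gave -0.03. A further tested probe set of Kcnj9, on the other array type, gave -0.32 ± 0.16 (adjusted p = 0.524), with the same sign as the main probe set. Neuron and Schwann cell markers, 5 of 9 above the array median, had sums of 2212 to 2384 in failure, 2131 to 2626 in hypertrophy and 2255 to 2591 in wild type, and their part in these signals was not tested. Kcnj5, a subunit of the acetylcholine-gated atrial channel, differed by -0.14 ± 0.17 in failure against wild type, and Kcnj11, the pore of the ATP-sensitive channel, by 0.04 ± 0.13. Kcnj12, a further resting potential pore, gave 176, 163 and 131 in failure and 91.5 to 143 in wild type (0.31 ± 0.32). Its hypertrophy arrays ranged from 86.7 to 145 apart from replicate 2 at 9.05, the only value of a tested member below the floor.

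The remaining potassium channels, 2 tested 2-pore channels and 5 tested channels opened by calcium or sodium ions, included no called gene. Kcnk3, a background channel sensitive to acid, had means of 505 ± 74.5 in failure, 476 ± 67.3 in hypertrophy and 497 ± 52.2 in wild type (SD, n = 3, 8 and 5). Kcnn4, the intermediate conductance channel of blood cells and other non-excitable cells, gave 328, 390.5 and 319 in failure, 312 to 451 in hypertrophy and 428, 387, 511, 455 and 413 in wild type. Only 1 failure array of Kcnn4 reached the wild type range, and the log2 difference was -0.34 ± 0.14 (adjusted p = 0.381). Kcnk4, a stretch-sensitive channel, differed by -0.16 ± 0.08 in hypertrophy against wild type (adjusted p = 0.96).

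**Figure D3:**
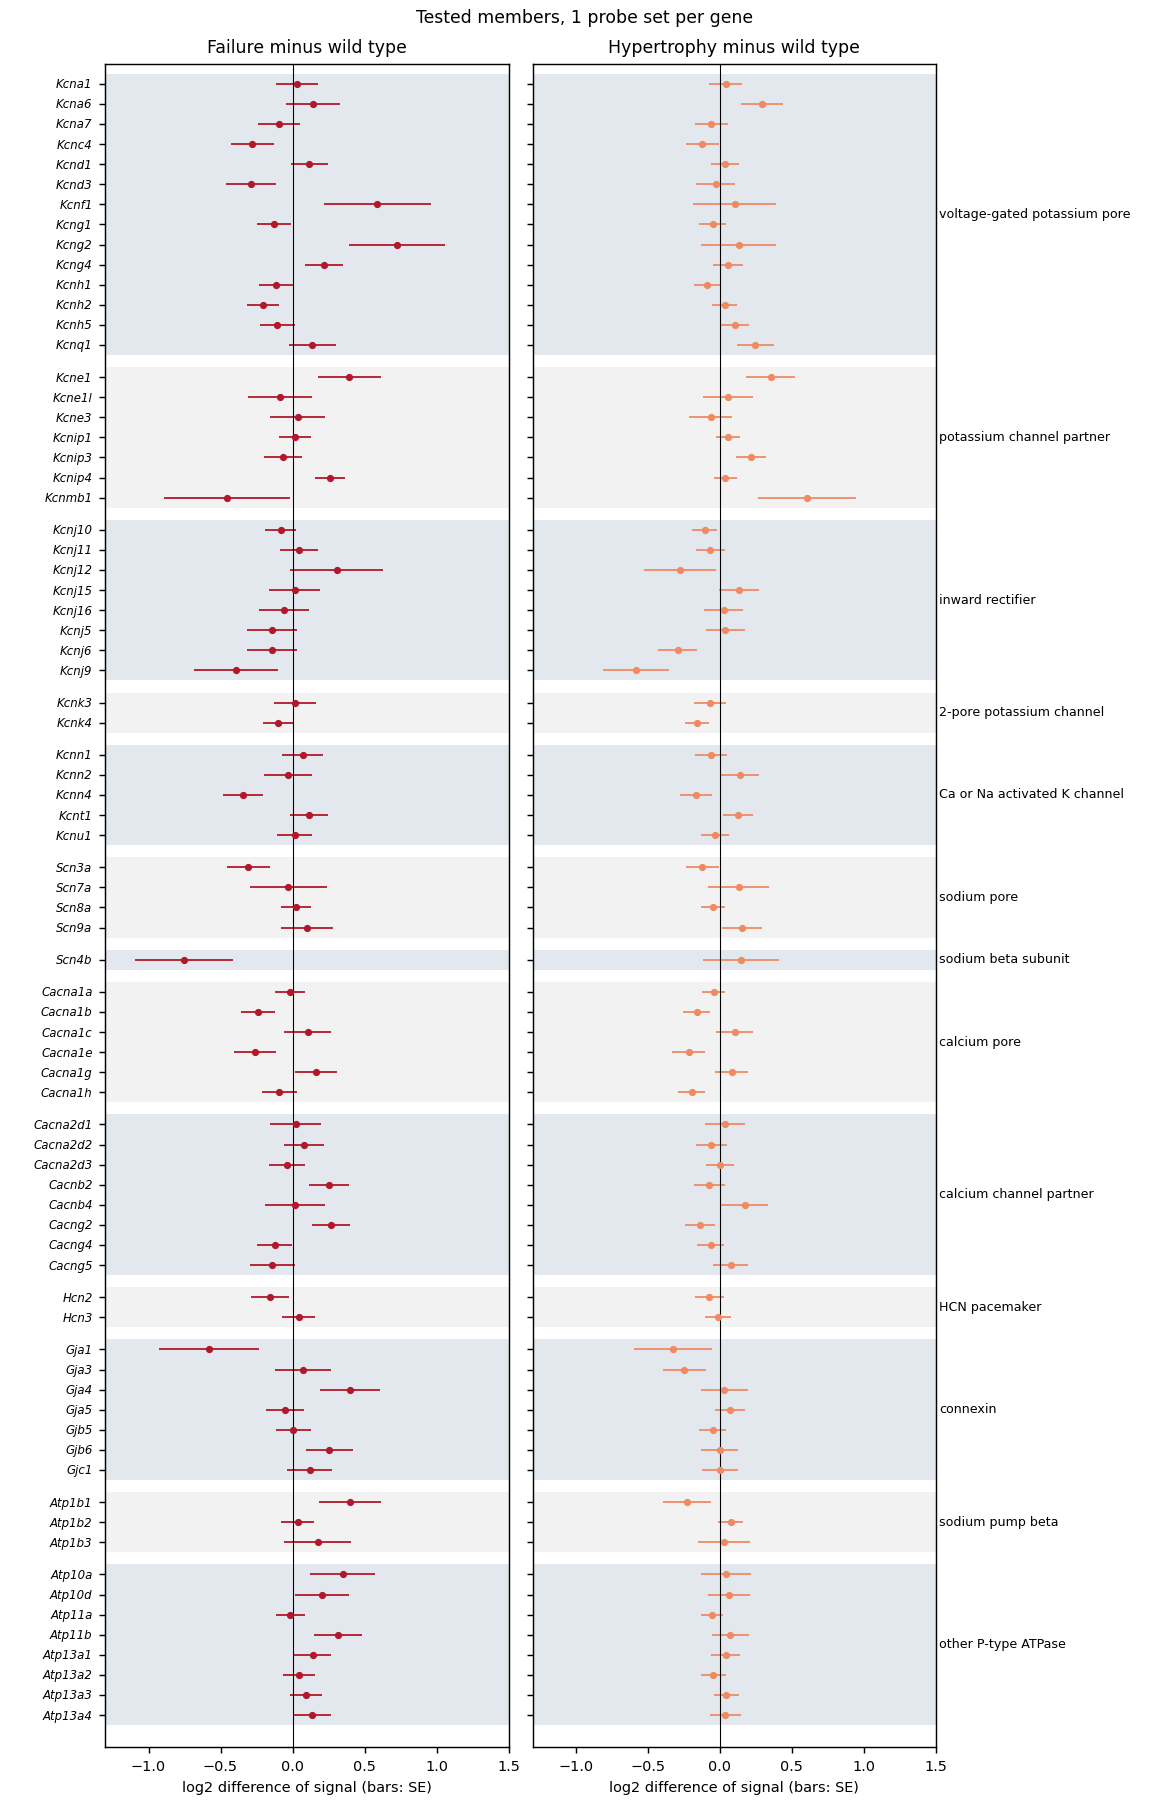
Log2 difference of signal with its SE for the 75 tested members, failure minus wild type on the left and hypertrophy minus wild type on the right, grouped by role. Most points lie near 0; Scn4b (-0.75) and Gja1 (-0.58) lie farthest to the left and Kcng2 (0.72) farthest to the right in failure, and no point was called.

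The L-type calcium channel, the entry route for the calcium that triggers contraction, gave no called subunit. Cacna1c, its ventricular pore, gave 380.4, 365 and 489 in failure, 273 to 534 in hypertrophy and 416, 355, 375, 369 and 384 in wild type. The groups overlapped throughout, and the difference was 0.11 ± 0.16 in failure (interval -0.24 to 0.45) and 0.10 ± 0.13 in hypertrophy (interval -0.17 to 0.37) against wild type. Cacnb2, the beta subunit that brings the pore to the membrane, gave 161, 167 and 165 in failure, 101 to 157 in hypertrophy and 131, 133, 154, 115 and 162 in wild type. The 3 failure arrays lay above all 8 hypertrophy arrays and overlapped wild type in 1 array. The log2 difference of Cacnb2 was 0.33 ± 0.13 in failure against hypertrophy (adjusted p = 0.406) and 0.25 ± 0.14 in failure against wild type (adjusted p = 0.56). Cacna2d1, which is attached on the outer face of the membrane, differed by 0.02 ± 0.18 in failure against wild type. Its second tested probe set gave 0.33 ± 0.26 (adjusted p = 0.647), with 114 to 129 in failure and 80.5 to 113 in wild type, without overlap. In hypertrophy against wild type these probe sets gave 0.03 ± 0.14 and 0.41 ± 0.20. The further beta subunit Cacnb4 differed by 0.02 ± 0.21 in failure against wild type.

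Cacng2, known from the cerebellum as stargazin, had the smallest p-value of any member in any comparison. It gave 348, 386 and 378 in failure, 226 to 317 in hypertrophy and 289, 288, 269, 322 and 381 in wild type. Failure lay above every hypertrophy array and overlapped wild type through 1 array. The log2 difference was 0.41 ± 0.12 in failure against hypertrophy (adjusted p = 0.258, and 0.0200 with array weights, under which 2.17% of all probe sets passed) and 0.27 ± 0.13 in failure against wild type (adjusted p = 0.477). The T-type pores Cacna1g and Cacna1h, which open at low voltage, differed by 0.17 ± 0.14 and -0.09 ± 0.12 in failure against wild type. In hypertrophy against wild type, Cacna1h differed by -0.20 ± 0.10 and Cacna1e, the R-type pore, by -0.22 ± 0.11 (adjusted p = 0.96 for each). Cacna1b, the N-type pore of nerve endings, gave 134, 129 and 116 in failure against 149, 137, 160.3, 166 and 136 in wild type, without overlap (-0.24 ± 0.12, adjusted p = 0.494).

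The pacemaker channels Hcn2 and Hcn3 differed by -0.15 ± 0.13 and 0.04 ± 0.11 in failure against wild type. Hcn2 gave 1433, 1379 and 1504 in failure, 1247 to 1921 in hypertrophy and 1709, 1863, 1463, 1509 and 1489.7 in wild type, with 1 failure array inside the wild type range. The sodium pump was represented by its 3 beta subunits, which escort the catalytic subunit to the membrane. Atp1b1, the main cardiac beta subunit, gave 137, 137 and 226 in failure, 65.1 to 131 in hypertrophy and 110.1, 143, 122, 113 and 128 in wild type. The failure arrays lay above all hypertrophy arrays. Of the failure arrays, 2 lay within the wild type range and replicate 3 above it. That array differed from the other failure arrays in markers of other cells. The log2 difference of Atp1b1 was 0.63 ± 0.20 in failure against hypertrophy (adjusted p = 0.299) and 0.40 ± 0.21 in failure against wild type (adjusted p = 0.547). Without failure replicate 3 it was 0.39 against hypertrophy and 0.16 against wild type. Atp1b2 and Atp1b3 differed by 0.03 ± 0.11 and 0.17 ± 0.23 in failure against wild type.

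The 8 ATPases that the symbol pattern adds, which include lipid flippases and transporters of polyamines and other cations, had differences of -0.01 to 0.35 in failure against wild type, with a median of 0.14 and none called. A further tested probe set of Atp11a, a flippase, differed from its main one (-0.01 ± 0.10), with 258, 231 and 208 in failure, 143 to 249.9 in hypertrophy and 176, 178, 174, 152 and 112 in wild type. In that probe set failure lay above wild type without overlap (0.57 ± 0.19, adjusted p = 0.188), the smallest p-value of any member probe set in this comparison. Atp11b was higher without overlap, at 81.4, 87.9 and 85.5 in failure and 58.5 to 79.3 in wild type (0.31 ± 0.17, adjusted p = 0.46).

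Genes that work with these channels were counted from a list of 81, of which 69 had a probe set and 54 were tested. None passed in any comparison. In failure against wild type 3 had an unadjusted p under 0.05 with higher and 2 with lower signal, in hypertrophy against wild type 1 and 4, and in failure against hypertrophy 3 and 3. These are 9.26%, 9.26% and 11.1% of the 54, against 11.4%, 7.12% and 9.36% of all probe sets. The higher ones in failure against wild type were the intercalated disc proteins Vcl (0.78 ± 0.23) and Jup (0.44 ± 0.15) and the kinase Sgk1 (0.54 ± 0.16). The lower ones were Hrc, a calcium-binding protein of the sarcoplasmic reticulum (-0.51 ± 0.19), and Abcc9, the sulfonylurea receptor that pairs with ATP-sensitive potassium channels (-0.41 ± 0.16). Adjusted p-values of these 5 genes were 0.209 to 0.326. Over the 54 genes the median log2 difference was -0.01, -0.01 and 0.04 in failure against wild type, hypertrophy against wild type and failure against hypertrophy.

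Probe sets of the same gene often disagreed, which bears on every single-gene value above. Of the 108 members, 38 had several probe sets, of which 18 had exactly 1 tested and 12 at least 2. The 12 gave 15 pairs of a main and a further tested probe set. Over the 16 arrays the correlation of their log2 signals ran from -0.48 (Cacna1e) to 0.446 (Kcnj15) with a median of 0.125, and 6 of 15 were below 0. These are descriptions only, and pairs on the same type share hybridisations. Pairs across types join arrays of the same group and replicate number, which the labels do not state to hold the same RNA. The sign of the difference was opposite in 9 of 15 pairs in failure against wild type, 6 of 15 in hypertrophy against wild type and 5 of 15 in failure against hypertrophy. Some opposite pairs held values near 0, where a sign says little, such as Kcnj15 at 0.01 and -0.07 in failure against wild type. The same shares over all genes with several tested probe sets were not computed, so whether these counts are particular to the members was not tested.

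Cacng2 was a pair with the same sign in both comparisons of failure, at 0.27 and 0.36 against wild type and 0.41 and 0.23 against hypertrophy. Kcnj9 gave -0.39, 0.41 and -0.07 in failure against wild type from its 3 probe sets, and Kcnk3 gave 0.02 and -0.40. For Gja1 the second probe set read near the background, at 27.5 to 48.7 in failure, 6.46 to 74.2 in hypertrophy and 15.5 to 51.9 in wild type, and was not tested, so the lower signal of connexin 43 rests on 1 probe set. The second probe set of Atp1b1 was also untested and gave 78.3, 95.1 and 25.5 in failure, 55.6 to 118 in hypertrophy and 52.7 to 94.4 in wild type. Its mean was lower in failure (66.3) than in hypertrophy (85.6), the reverse of the main probe set. Failure replicate 3, the highest array of the main probe set, was the lowest here. Other members with a bright and a background probe set were Cacna1a (882 to 1153 and 7.82 to 25.8 over all arrays), Hcn2 (1247 to 1921 and 4.84 to 39.9) and Kcnn4 (312 to 511 and 1 to 23.1).

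**Figure D4:**
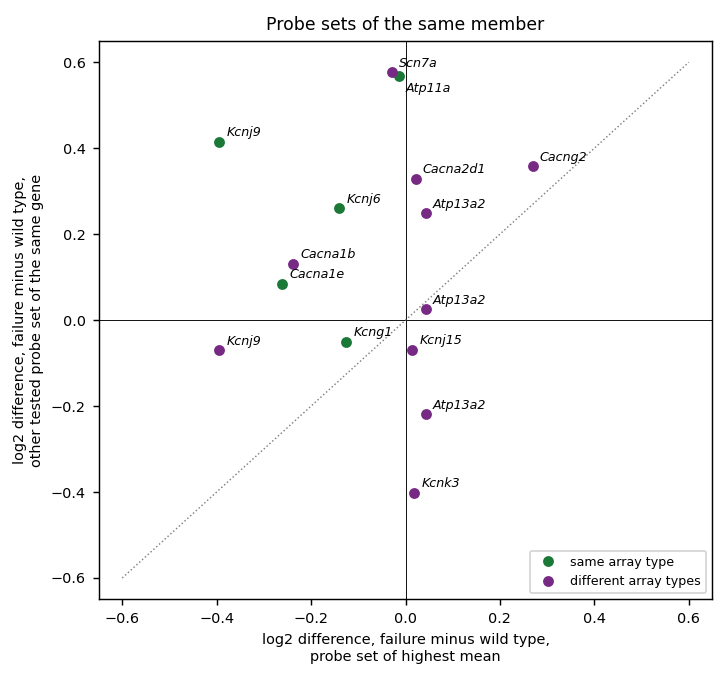
Log2 difference of failure minus wild type for the 15 pairs of tested probe sets of the same member, the probe set of highest mean on the horizontal axis and the further one on the vertical axis, coloured by whether both are on the same array type. Equal values would lie on the dotted line; 9 of 15 pairs have opposite signs.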

How the data were processed

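The authors deposited 1 linear intensity per probe set and array, and their summarising and scaling steps are not given in the sources used here. Across arrays, trimmed means had a coefficient of variation of 4.82% and 3.31% on the 2 types, and medians one of 6.60% and 4.65%. Values were to be used as deposited where trimmed means or medians varied by under 5%. Trimmed means met this on both types and medians only on the second, and no rescaling was done. Before log2, intensities were floored at the 20th percentile of their type (39.5 and 27.5), which understates differences of dim probe sets. Probe sets that reached their array's median in at least 3 arrays were tested, 13984 in all. A limma model (version 3.58.1, R 4.3.3) with the 3 groups as terms was fitted over the 16 arrays of each type, with moderated statistics from eBayes. Benjamini-Hochberg adjustment ran per type and comparison, and 0.05 was the threshold.

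Names came from the platform annotation, checked by gene identifier against RefSeq GRCm38.p6. Of 12488 and 12477 probe sets, 10855 and 10603 had 1 gene, 396 and 178 several and 1237 and 1696 none. Gene names matched by identifier for 10839 and 10572. Named genes are a core list of cardiac channels, the 8 smallest p-values and 3 largest differences per comparison, and genes tested on both array types; Kcng1, Atp11b, Atp1b2, Atp1b3, Scn8a, Scn9a, Hcn3, Gja3, Gjb5, Gjb6, Cacnb4 and the partner genes were added with their values known. The members, lists and rules were chosen with earlier results of these data known. No pair of arrays had identical values. Summaries used pandas 2.3.3 and numpy 2.4.6 in Python 3.11.15, and figures matplotlib 3.10.9.

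Same-numbered arrays of different groups were compared through their deviations from the group means. The correlation ran from -0.191 to 0.363 over 22 pairs and exceeded 0.1 in 5, so the numbers were not taken to pair samples.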

Additional observations from a re-analysis of the deposited data

Results flagged for a closer look

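Among the 37 genes named by rule, each hypertrophy and wild type group was searched for an array far from its fellows, and 10 of 74 groups held one (13.5%). Chance gives about 1 in 20 for normal values, and the same search over all tested probe sets found 6.76%. The genes were partly chosen for their differences, and the failure groups of 3 arrays were not searched. Hypertrophy replicate 1 read 577 for Gja1, where the other 7 read 1844 to 2729. Hypertrophy replicate 2 read 9.05 for Kcnj12, where the others read 86.7 to 145, and 77.9 for Kcnq1, where the others read 118 to 146. Hypertrophy replicate 3 read 259 for Atp13a2 (others 185 to 217). Hypertrophy replicate 4 read 401 for Kcnmb1 (others 82.3 to 223). The 2 arrays of low Gapdh ratio each held 1 high value: replicate 6 read 244 for Kcne1 (others 93.9 to 148) and replicate 7 read 903 for Kcnip3 (others 556 to 681). In wild type, replicate 4 read 54.4 for Kcnf1 (others 112 to 125), replicate 3 read 517 for Kcnip3 (others 571 to 593) and replicate 5 read 91.5 for Kcnj12 (others 129 to 143).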

How the results depend on the processing

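Of 30 alternatives, those that called a member were few. With array weights 3 members passed in failure against wild type (Gja1 at -0.72, Gja4 at 0.58 and Kcne1 at 0.49) and 1 in failure against hypertrophy (Cacng2 at 0.46), where 10.2% and 2.17% of all probe sets passed. Without hypertrophy replicates 1, 6 and 7, 1 member (Gja1) passed in failure against wild type, as did 2.17% of all probe sets. Leaving out 1 array at a time gave 0 to 1 calls in failure against hypertrophy, the 1 being Scn4b without hypertrophy replicate 1. Under the fit with the replicate number as a replicate block no member was called, and the numbers were not taken to pair the samples. No alternative called a member in hypertrophy against wild type.

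The median log2 difference of tested members above the array median was 0.016 in failure against wild type, -0.032 after quantile normalization, -0.074 after median scaling and 0.078 with the next probe set of each gene. In hypertrophy against wild type it was -0.00028, and 0.038 with the next probe set. In failure against hypertrophy it was 0.033, -0.0069 after quantile normalization, -0.045 after median scaling, and 0.00057 to 0.039 leaving out 1 array at a time.

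Of 51 gene results, 13 changed sign in some alternative and 33 neither changed sign nor were called. With quantile normalization and median scaling, failure against wild type became -0.022 and -0.051 for Atp13a2, -0.056 and -0.073 for Cacna2d1 and -0.059 and -0.080 for Kcnj15. With median scaling it became -0.049 for Kcnj11 and -0.072 for Kcnk3. With array weights it became -0.016 for Kcnj11, -0.073 for Kcnk3 and 0.065 for Scn7a. The replicate block gave -0.0027 for Cacna2d1, -0.053 for Kcnj15 and, in failure against hypertrophy, 0.14 for Gja1. The next probe set gave 0.13 for Cacna1b, 0.41 for Kcnj9, -0.068 for Kcnj15, -0.40 for Kcnk3 and 0.58 for Scn7a in failure, and 0.099 for Cacna1e and 0.036 for Kcnj9 in hypertrophy, against wild type. Leaving out 1 array at a time, failure against wild type ran from -0.025 to 0.19 for Cacna1c, -0.12 to 0.20 for Cacna2d1, -0.13 to 0.011 for Gja5, -0.0024 to 0.12 for Kcnj11, -0.068 to 0.077 for Kcnj15, -0.097 to 0.10 for Kcnk3 and -0.13 to 0.079 for Scn7a. The cause of these changes was not tested. The 33 members that reached their array's median in too few arrays were not tested, of which 2 were below the floor in every array and 12 in none.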
